A study of Mus musculus with 9 samples.

Results

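Perivascular resident macrophages lie along blood vessels in many tissues and are recognised by a shared set of receptors, enzymes and secreted proteins. The 8 genes described here, Mrc1, Cd163, Lyve1, Folr2, Cd209f, F13a1, Cbr2 and Pf4, are markers in common use for such cells. They were taken by gene symbol, whatever their values, from a table of 24607 genes, and all 8 were present. The data came from a study of macrophages grown beside sensory neurons, whose title names transforming growth factor beta (TGF-β) as the mediator of a neuron-given macrophage identity. What is described below is which of these markers moved, which did not, and which parted from each other.

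All 9 libraries came from bone marrow-derived macrophages (BMDM) of mice with the genotype CX3CR1-gfp/+, in which a green fluorescent protein gene sits at the fractalkine receptor locus. Bone marrow was differentiated with macrophage colony-stimulating factor (MCSF) at 50 ng/ml, and the cells were then kept alone (monoculture), kept with neurons of the dorsal root ganglion (DRG; co-culture), or given 0.02 ng/ml TGF-β. Every library carries a time of 5 days in the labels, and all cells were sorted on CD11b and CD64 before RNA sequencing. Each group has 3 libraries, and the design text gives 3 mice as their source; whether a replicate number marks the same mouse in every group is not stated, and p-values here measure the spread between these samples, which may in part be technical. These are cultured cells with no vessel beside them, so the gene names stand for markers of a tissue cell type and not for the cells' position.

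As background, the mannose receptor Mrc1 and the scavenger receptor Cd163 take up glycoproteins and hemoglobin-haptoglobin complexes, Lyve1 binds hyaluronan, Folr2 binds folate, and Cd209f belongs to the C-type lectins related to DC-SIGN. F13a1 encodes the catalytic A subunit of coagulation factor XIII, a transglutaminase that crosslinks fibrin, Cbr2 encodes a carbonyl reductase, and Pf4 encodes the platelet factor 4 chemokine (Cxcl4). In tissues, macrophages that carry these markers are often set against interstitial macrophages that are rich in MHC class II.

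Library depth ran from 46.8 to 308.8 M reads (M stands for 1e6), so a single read stood for between 0.346 and 2.27 normalized counts, the unit of every level below. The 10 pan-macrophage genes, led by Lyz2, had a summed level from 1021026 to 1153963 in the monoculture libraries, from 1283211 to 1644665 in the co-culture libraries and from 1217050.5 to 1404397 under TGF-β, and none was at 0 in a group. Lyz2 alone had means of 605012 in monoculture, 961784 in co-culture and 893724 with TGF-β. Of the 10, 3 rose and 2 fell in co-culture, with a median log2 difference of 0.04. Markers of other cell types moved with the co-culture. For fibroblasts, the sum of the 13 in the table was 41.8 to 114 for monoculture, 6608 to 9572 for co-culture and 21.0 to 103 for TGF-β. Of the 11 fibroblast markers tested, 11 rose in co-culture, although only 2 passed the filter on low values without the co-culture libraries; Lum, Pdgfra and Thy1 were at 0 in every monoculture library. Of 9 Schwann cell and satellite glia markers tested, 6 rose and 2 fell in co-culture, and 3 passed the filter without those libraries; Ngfr and Cdh19 were at 0 in monoculture, while the sum, led by Mbp, was 6050.2 to 6932 for monoculture, 4701 to 5288 for co-culture and 5745 to 6320 for TGF-β. Over all genes tested, 15.9% rose and 15.0% fell in co-culture. Of 8 endothelial and lymphatic markers tested, 5 rose and 2 fell, and 7 passed the filter without the co-culture libraries. Of 3 sensory neuron markers tested, 1 rose, and 2 passed without those libraries. The part of these cells in the changes below was not tested, and in bulk RNA fewer cells of a type cannot be told apart from less RNA per cell. The replicate 1 library of each group, male by these genes, had 17950 to 21544 normalized counts summed over 4 Y-linked genes. This sum was 108.6 and 108.3 in co-culture 2 and 3. It was 2.30 in monoculture 2 and 0 in monoculture 3, TGF-β 2 and TGF-β 3. The female-expressed gene Xist was at 222 in co-culture 1, against 3.25 in monoculture 1 and 9.77 in TGF-β 1. The source of these reads was not tested.

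The markers did not move as a block. In co-culture against monoculture, 4 of the 8 rose (Mrc1, F13a1, Cd163 and Cbr2), 1 fell (Folr2), and Pf4, Lyve1 and Cd209f did not pass the test; 15.9% of the 16328 genes tested rose in this comparison and 15.0% fell. With TGF-β against monoculture, F13a1 rose, Folr2 fell and the other 6 did not pass, where 1.13% of all genes rose and 1.39% fell. In co-culture against TGF-β, Mrc1, F13a1 and Cbr2 were higher, Folr2 was lower and 4 did not pass, against 13.4% of all genes higher and 11.9% lower. The median log2 difference over the 8 was 1.09, 0.07 and 1.04 in these 3 comparisons, and over all genes tested it was 0.03, -0.01 and 0.01. A gene was called at a Benjamini-Hochberg adjusted p under 0.05 in limma. All 8 passed the filter (at least 10 normalized counts in at least 3 libraries), Cd209f only through its co-culture values. The 3 comparisons share libraries and are not independent of each other.

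**Figure D1:**
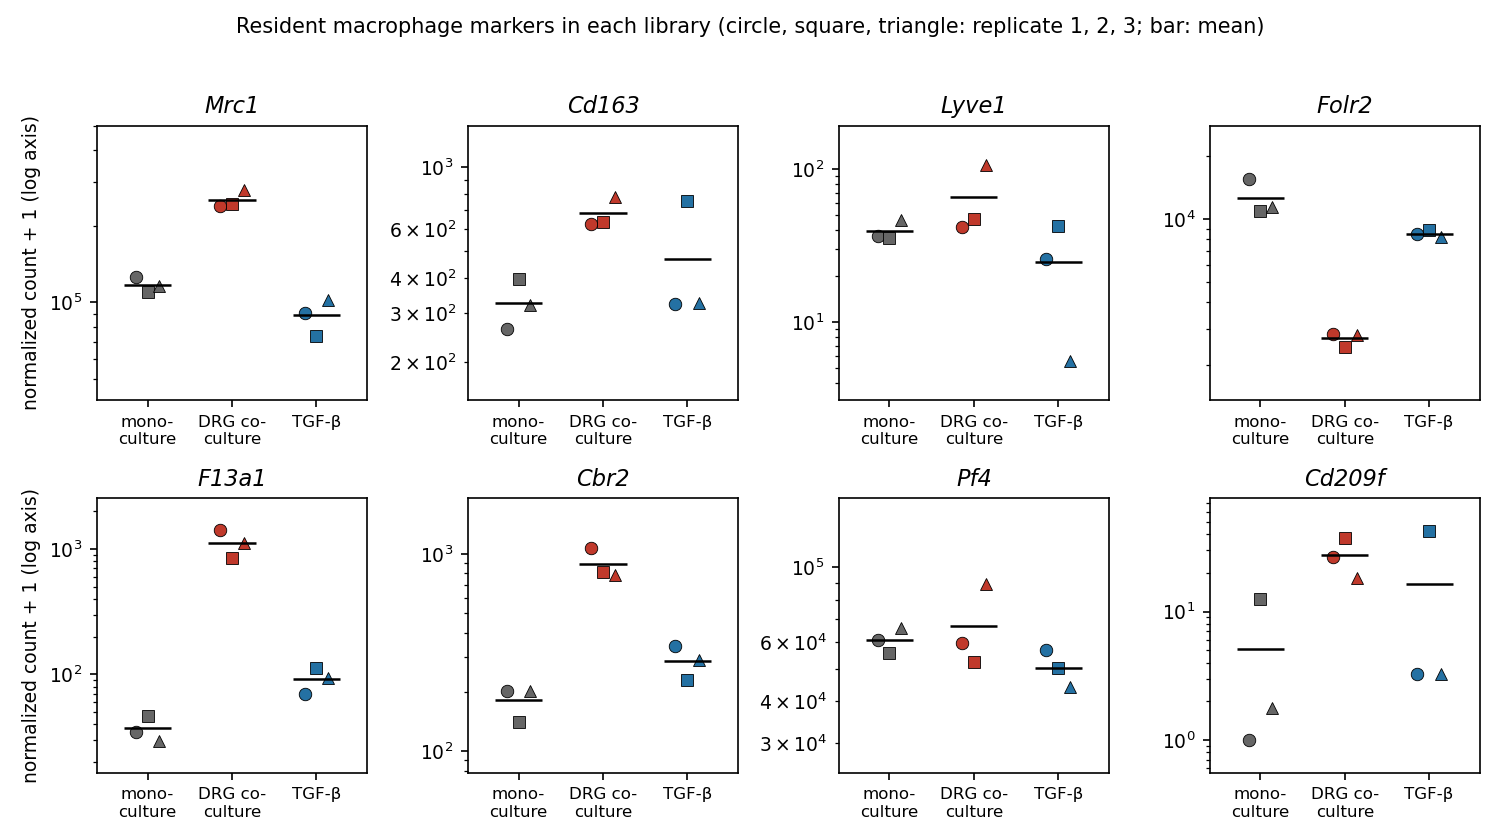
Normalized count plus 1 of the 8 markers in each library (points, log axis) by group, with the group mean as a bar; normalized counts are reads divided by 1 size factor per library. Mrc1, F13a1, Cbr2 and Cd163 are above every monoculture library in each co-culture library, Folr2 is below, and Pf4 and Lyve1 overlap.

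Among the receptors, Mrc1 (ENSMUSG00000026712, plus strand, chr2:14229392-14332057 in mm10, GENCODE M21) had the highest normalized counts of the 8. It was at 126066, 109615 and 115799 in monoculture replicates 1 to 3, at 240792, 244193 and 278157 in co-culture, and at 91091, 73831 and 102610.1 with TGF-β. Every co-culture library lay above every other library, and every TGF-β library lay below every monoculture library. The mean in co-culture was 2.17-fold that in monoculture, with a log2 difference on the scale of log2(value + 10) of 1.12 ± 0.12 (SE; limma adjusted p = 5.81e-06). Against TGF-β the difference was 1.52 ± 0.12 (limma adjusted p = 5.13e-07). With TGF-β against monoculture it was -0.40 ± 0.12, with an interval of -0.66 to -0.15, and did not pass (limma adjusted p = 0.103); it passed without TGF-β 3 (adjusted p = 0.0230) and with DESeq2 (adjusted p = 0.0273).

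Cd163 (ENSMUSG00000008845, plus strand, chr6:124304656-124330527) was a low gene with the same direction in co-culture. Its normalized counts were 261, 395 and 319 in monoculture, 627, 635 and 783 in co-culture, and 322, 754 and 325 with TGF-β. The co-culture libraries were all above the monoculture ones, while TGF-β 2 alone reached the co-culture range and the other 2 TGF-β libraries lay within the monoculture range. Cd163 rose in co-culture by 1.06 ± 0.29 on the log2 scale (limma adjusted p = 0.0146), a 2.10-fold ratio of means. The call was lost without monoculture 1 (adjusted p = 0.0505), without co-culture 3 (0.0590) and without the 3 male libraries (0.0877). With TGF-β against monoculture the difference was 0.41 ± 0.29 (limma adjusted p = 0.572). Against TGF-β, co-culture differed by 0.65 ± 0.29 (limma adjusted p = 0.129), and without TGF-β 2 it was 1.04 (adjusted p = 0.00160). Of the 50-base windows of the longest Cd163 transcript, 0.137% occur in other genes, among them the fibronectin gene Fn1, which went from 80.5 ± 47.9 to 12458 ± 1051 normalized counts in co-culture.

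Folr2 (ENSMUSG00000032725, minus strand, chr7:101839988-101857194) went the other way. It was at 15514, 10885 and 11358 normalized counts in monoculture, at 2837, 2452 and 2795 in co-culture, and at 8445, 8865 and 8224 with TGF-β. The 3 groups did not overlap, with monoculture highest, TGF-β between and co-culture lowest. Folr2 fell in co-culture, from a mean of 12586 ± 2547 (SD, n = 3) to 2695 ± 211, a log2 difference of -2.20 ± 0.12 (limma adjusted p = 6.12e-09), so that the monoculture mean was 4.67 times the co-culture mean. With TGF-β it fell by 0.55 ± 0.12 (limma adjusted p = 0.0238), a call lost without monoculture 1 (adjusted p = 0.0608), TGF-β 1 (0.119) or TGF-β 2 (0.0574). Co-culture was below TGF-β by a log2 difference of -1.66 ± 0.12 (limma adjusted p = 1.89e-07).

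Part of the Folr2 sequence is annotated to a second gene, which limits how its reads can be assigned. In GENCODE M21 (mm10) 975 of its exon bases overlap Gm10602 on the opposite strand, and 56.7% of the 50-base windows of its longest transcript occur in that gene. Whether strand was used in counting is not stated. Gm10602 itself had 298 ± 47.3 normalized counts in monoculture and 194 ± 18.4 in co-culture, with a log2 difference of -0.59 ± 0.20 (limma adjusted p = 0.0402). The genes on each side of Folr2 also fell in co-culture. The other folate receptor gene Folr1, 1.1 kb away, fell from 72.2 ± 34.3 to 14.7 ± 7.18 normalized counts (-1.69 ± 0.37, limma adjusted p = 0.00285), and the phosphatase gene Inppl1, 1.8 kb away, fell by 0.84 ± 0.10 (limma adjusted p = 1.98e-05).

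Lyve1 (ENSMUSG00000030787, minus strand, chr7:110850607-110863239) was at low levels throughout. Its normalized counts were 35.7, 34.5 and 45.7 in monoculture, 40.9, 46.1 and 106 in co-culture, and 24.8, 41.5 and 4.54 with TGF-β, from as few as 2 reads in TGF-β 3 and as many as 160 in co-culture 3. The groups overlapped, and 1 library in each treated group stood away from its other 2. The log2 difference was 0.52 ± 0.44 in co-culture, with an interval of -0.43 to 1.47 (limma adjusted p = 0.425), and -0.71 ± 0.44 with TGF-β (limma adjusted p = 0.505). Co-culture against TGF-β gave 1.22 ± 0.44, interval 0.27 to 2.17 (limma adjusted p = 0.0585). Without co-culture 3 the difference in co-culture was 0.14 (adjusted p = 0.866), and with any 1 library left out it ran from 0.14 to 0.74. Co-culture against TGF-β ran from 0.71 without TGF-β 3 to 1.62 without TGF-β 2, where it passed (adjusted p = 0.0193). The interval in co-culture includes a change as large as that of Mrc1. Lyve1 also marks lymphatic endothelium. The 11 endothelial and lymphatic markers in the table gave sums of 9290 to 9799 for monoculture, 8050.0 to 8702 for co-culture and 7744 to 8188 for TGF-β, with Tek and Prox1 at 0 in monoculture. These sums are led by Vwf in monoculture, which fell in co-culture from 6023 ± 145 to 2956 ± 466 normalized counts. Among the 8 tested, 5 rose and 2 fell in co-culture (median log2 difference 1.09), where 15.9% and 15.0% of all genes tested did. With TGF-β 0 rose and 1 fell. Of these 8 markers, 7 passed the filter without the co-culture libraries. Their part in the Lyve1 values was not tested. The genes on each side of Lyve1, Rnf141 and Mrvi1, did not pass in co-culture (0.00 ± 0.10 and -0.16 ± 0.23, limma adjusted p = 0.987 and 0.635).

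Cd209f (ENSMUSG00000051906, minus strand, chr8:4102787-4105835) was rarer still. Its reads numbered 0, 10 and 1 in monoculture, 74, 47 and 26 in co-culture, and 3, 19 and 1 with TGF-β, which makes 0, 11.5 and 0.775, then 25.6, 36.7 and 17.3, then 2.25, 41.5 and 2.27 normalized counts. A count of 0 in monoculture 1 allows up to 4.87 normalized counts (95% confidence, counting error only). Each co-culture library was above each monoculture library, while TGF-β 2 held the highest value of all. The difference in co-culture was 1.43 ± 0.53, interval 0.30 to 2.57, and missed the threshold (limma adjusted p = 0.0549); it passed in 5 of the 17 other settings in which the gene could be tested, among them without monoculture 2 (adjusted p = 0.0389). With TGF-β against monoculture the difference was 0.58 ± 0.53 (limma adjusted p = 0.686), and for co-culture against TGF-β it was 0.85 ± 0.53 (limma adjusted p = 0.275). Of the 50-base windows of its longest transcript, 25.9% occur in Cd209g, which had means of 0.258, 2.73 and 3.64 normalized counts in monoculture, co-culture and TGF-β. Of the 6 other Cd209 genes listed, 1 was in the table and 0 passed the filter.

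Of the enzymes, F13a1 (ENSMUSG00000039109, minus strand, chr13:36867178-37050244) changed by the largest factor of the 8. It was at 34.1, 46.0 and 28.7 normalized counts in monoculture, at 1412, 842 and 1115 in co-culture, and at 69.1, 111 and 93.2 with TGF-β. The 3 groups did not overlap, and the order was the reverse of that of Folr2. F13a1 rose in co-culture from a mean of 36.3 ± 8.89 (SD, n = 3) to 1123 ± 285, a 31.0-fold ratio and a log2 difference of 4.60 ± 0.25 (limma adjusted p = 7.75e-09). With TGF-β it rose 2.52-fold, by 1.13 ± 0.25 on the log2 scale (limma adjusted p = 0.0299), a call lost without monoculture 1 (adjusted p = 0.0730), monoculture 3 (0.0940) or TGF-β 2 (0.123). Co-culture was 12.3-fold above TGF-β (log2 difference 3.47 ± 0.25, limma adjusted p = 2.20e-07). The fibroblast marker sum rose in the same libraries, from at most 114 to at least 6608 normalized counts, and so rose beside every marker that was higher in co-culture. Its part in the F13a1 values was not tested. In the annotation, 74 exon bases of F13a1 overlap Gm30489 on the opposite strand.

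Cbr2 (ENSMUSG00000025150, minus strand, chr11:120729489-120732114) followed the same order at a smaller scale. Its normalized counts were 201, 139 and 202 in monoculture, 1067, 811 and 783 in co-culture, and 341, 229 and 291 with TGF-β. No 2 groups overlapped. Cbr2 rose 4.90-fold in co-culture (log2 difference 2.24 ± 0.20, limma adjusted p = 1.07e-06). With TGF-β the difference was 0.64 ± 0.20, interval 0.20 to 1.07, which did not pass in limma (adjusted p = 0.129) but passed with DESeq2 (adjusted p = 0.0317). Co-culture was above TGF-β by 1.60 ± 0.20 (limma adjusted p = 4.17e-05). The windows of its transcript found in another gene, 15.1%, belong to Gm11771, which was at 0 in monoculture and co-culture.

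The secreted chemokine gene Pf4 (ENSMUSG00000029373, plus strand, chr5:90772435-90773383) was high and did not pass a test in any comparison. It was at 60738, 55660.1 and 65930.1 normalized counts in monoculture, at 59632, 52244 and 89165 in co-culture, and at 56701, 50098 and 44152 with TGF-β. Monoculture overlapped with both other groups, and co-culture 3 alone stood above the rest. The difference was 0.11 ± 0.17 in co-culture, interval -0.27 to 0.48 (limma adjusted p = 0.695), so a change as large as that of Mrc1 lies outside the interval. It was -0.28 ± 0.17 with TGF-β, interval -0.65 to 0.10 (limma adjusted p = 0.507). Co-culture against TGF-β gave 0.38 ± 0.17, interval 0.007 to 0.758 before adjustment (limma adjusted p = 0.133). It passed with DESeq2 (adjusted p = 0.0498) and without co-culture 2 (adjusted p = 0.0348). Pf4 is also a platelet gene, and the 7 platelet markers in the table gave sums of 274 to 585 for monoculture, 373 to 569 for co-culture and 222 to 361 for TGF-β, with Gp1bb at 0 in monoculture and TGF-β.

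**Figure D2:**
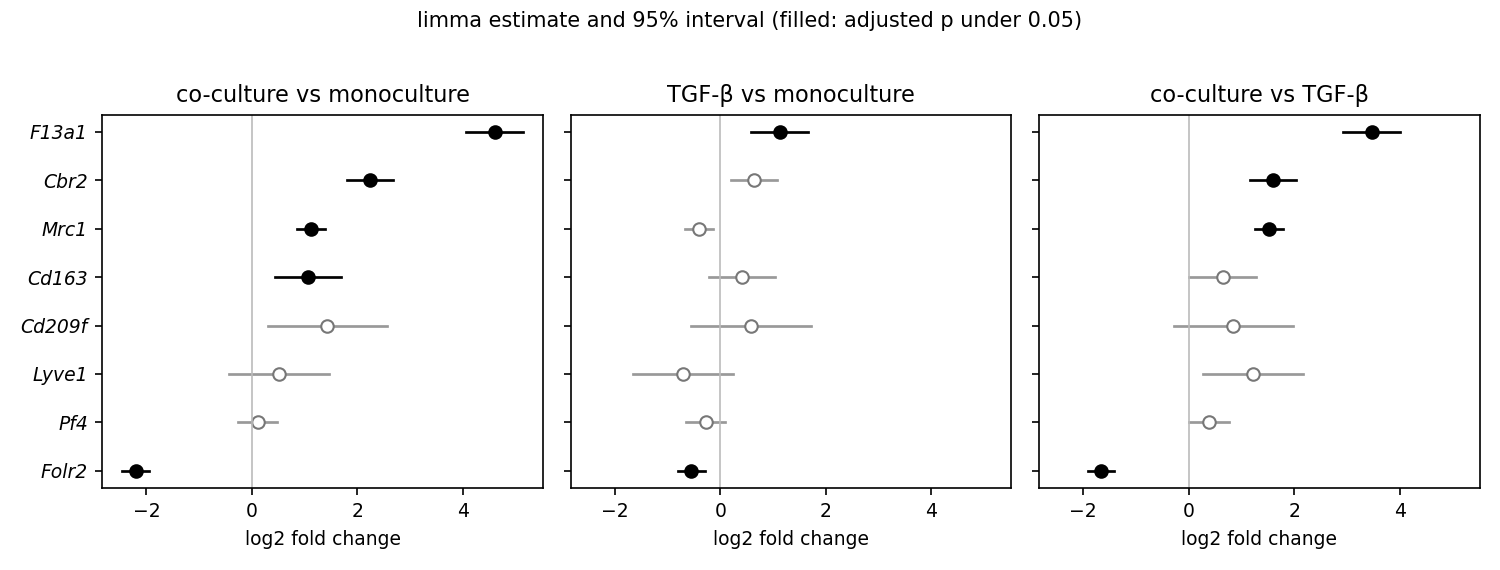
Log2 difference of each of the 8 markers (points) with its 95% interval (lines) in the 3 comparisons, on the log2(value + 10) scale; filled points passed the limma test. In co-culture against monoculture, F13a1 lies farthest right at 4.60, Folr2 lies farthest left at -2.20, and the Pf4 interval spans 0.

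Sequence upstream of the start sites is printed for the genes that moved farthest in each direction, F13a1 and Folr2, and for Mrc1, the one with the most normalized counts before correction for length. The letters are the 200 bases before a RefSeq start (GRCm38.p6), 5′ to 3′ on the gene's strand. Capitals mark GAGGAA or its reverse complement TTCCTC, the core letters of the PU.1 motif, a transcription factor of macrophages. Mrc1 (chromosome 2, plus strand) holds 3 matches, the F13a1 start printed (chromosome 13, minus strand) holds 1, and both Folr2 starts (chromosome 7, minus strand) hold 0. A second F13a1 start, at position 37049213 and not printed, also holds 0, so these letters do not separate the starts of F13a1 from those of Folr2.
Mrc1, chr2:14229214-14229413: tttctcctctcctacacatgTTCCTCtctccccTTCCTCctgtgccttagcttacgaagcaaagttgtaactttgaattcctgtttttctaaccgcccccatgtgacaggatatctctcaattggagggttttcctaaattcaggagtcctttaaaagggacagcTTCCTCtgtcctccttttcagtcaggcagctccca
F13a1, chr13:37050245-37050444: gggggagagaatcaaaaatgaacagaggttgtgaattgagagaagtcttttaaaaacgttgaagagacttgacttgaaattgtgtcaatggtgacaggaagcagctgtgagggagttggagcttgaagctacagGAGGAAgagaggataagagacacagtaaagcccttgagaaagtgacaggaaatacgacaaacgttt
Folr2, chr7:101857191-101857390: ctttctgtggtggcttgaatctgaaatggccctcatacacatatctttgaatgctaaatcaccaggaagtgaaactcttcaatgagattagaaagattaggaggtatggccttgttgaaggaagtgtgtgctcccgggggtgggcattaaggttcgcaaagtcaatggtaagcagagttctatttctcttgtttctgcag
Folr2, chr7:101845332-101845531: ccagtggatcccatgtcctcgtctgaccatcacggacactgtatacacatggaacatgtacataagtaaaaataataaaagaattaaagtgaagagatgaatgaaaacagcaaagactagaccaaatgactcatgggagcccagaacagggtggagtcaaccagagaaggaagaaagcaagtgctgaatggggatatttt
In the 250 bases before a start, GAGGAA on either strand was present in 23.2% of 32851 mouse promoters; Cbr2 and Pf4 hold 1 match each and Cd163 and Cd209f hold 0. The SMAD letters CAGAC, present in 42.2% of promoters, were found once each at the Folr2 start printed last, at a second F13a1 start and at Cd209f. The MAF letters TGCTGA, present in 16.1%, were found once at each Folr2 start and at no other of these starts. A match is a description of letters and not of binding, and 7 of the 8 genes have an entry in the promoter table.

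Levels per kilobase of exon gave the order of the markers within a group. In monoculture the means were 84294 for Pf4, 18390 for Mrc1 and 8141 for Folr2, followed by 136 for Cbr2, 59.5 for Cd163, 13.2 for Lyve1, 5.38 for F13a1 and 2.06 for Cd209f normalized counts per kilobase, the last 2 overlapping. Pf4 stood at percentile 99.8 of the tested genes, Folr2 at 96.9 and F13a1 at 8.06. In co-culture Pf4 and Mrc1 kept the top places at 92945 and 39928, Folr2 came next at 1743, then Cbr2 at 668, and F13a1 at 167 overlapped with Cd163 at 125. Folr2 had then gone to percentile 84.6 and F13a1 to 41.0. With TGF-β the order of the upper 5 was that of monoculture, and F13a1, Lyve1 and Cd209f overlapped at 13.5, 8.09 and 7.72 per kilobase.

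Ratios within a library show the parting without a comparison of depths. Mrc1 was 1.97, 2.44 and 2.47 times Folr2 per kilobase in the monoculture libraries, 2.62, 2.02 and 3.03 times with TGF-β, and 20.6, 24.2 and 24.2 times in co-culture. F13a1 over Folr2 was 0.000504 to 0.000970 in monoculture, 0.00188 to 0.00288 with TGF-β and 0.0787 to 0.114 in co-culture. Cbr2 over Folr2 went likewise, from 0.0149 to 0.0207, to 0.0302 to 0.0471, and to 0.326 to 0.438. In each of these ratios the co-culture range lay apart from both others; for the F13a1 and Cbr2 ratios the 3 groups were apart from each other. Over the 9 libraries Folr2 and F13a1 were the pair most unlike in pattern, with a root mean square difference of 2.91 on the centred log2 scale. Cd163 and Cd209f were the pair most alike, at 0.419, and TGF-β 2 stood high in both. The added 10 weighs heavily at the levels of Cd209f. Its ratio of means in co-culture against monoculture was 6.48, against 2.10 for Cd163, so this likeness is not firm.

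**Figure D3:**
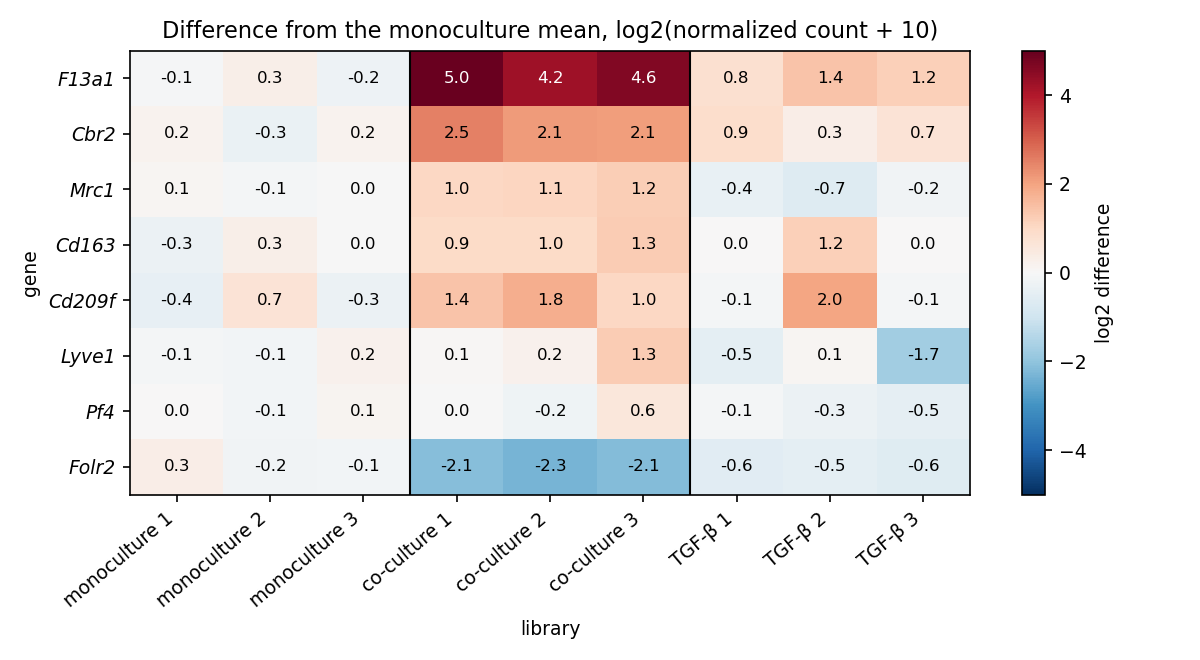
Log2 difference of each marker from its own monoculture mean in each of the 9 libraries, on the log2(value + 10) scale (colour and figures in the cells). Folr2 is negative in the 3 co-culture libraries where Mrc1, F13a1, Cbr2 and Cd163 are positive, and TGF-β 2 is high for Cd163 and Cd209f.

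Genes most like each called marker were found by the same measure among 12468 genes, as a description over the 9 libraries. For Mrc1 these were Ltbp4 and Gab1, at 0.142 and 0.155. For Folr2 they were Fxyd2 and Gpr126, at 0.123 and 0.127, both lower in co-culture, from 119 ± 16.3 to 19.5 ± 5.53 and from 1857 ± 224 to 432 ± 47.4 normalized counts. For F13a1 they were Il1b and Epb4.1l3, at 0.316 and 0.324; Epb4.1l3 had 125 ± 17.9 in monoculture, 2819 ± 383 in co-culture and 334 ± 76.0 with TGF-β, and Il1b was listed at 0 in monoculture and at 263 ± 40.4 in co-culture. For Cbr2 they were Sorbs3 and Gpr82, at 0.181 and 0.182, and for Cd163 they were Spats2l and Snord89, at 0.150 and 0.194. Spats2l had at most 17.3 normalized counts in any library and did not pass in any comparison. The added 10 weighs heavily at such levels, so its likeness to Cd163 is not firm. Gpr82 had means of 1.44 in monoculture, 48.1 in co-culture and 9.51 with TGF-β. The added 10 weighs in the same way on Gpr82 and on Il1b in monoculture. The likeness of Gpr82 to Cbr2 and of Il1b to F13a1 is therefore not firm either. Spats2l, Gpr82 and Il1b passed the filter on low values only through their co-culture values, which favours a rise there. The next genes along the chromosome moved with some markers. Slc39a12, 56.3 kb from Mrc1, rose by 1.33 ± 0.19 in co-culture (limma adjusted p = 7.83e-05), Ly86, 295.0 kb from F13a1, rose by 0.92 ± 0.08 (limma adjusted p = 7.63e-07), while Dcxr beside Cbr2 (0.30 ± 0.11) and Ppbp beside Pf4 (-0.58 ± 0.43) did not pass (limma adjusted p = 0.0593 and 0.360).

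Other markers of the same tissue cells also moved in both directions, with more rising than falling in co-culture. Of 27 further perivascular and border macrophage genes tested, 15 rose and 5 fell in co-culture against monoculture (median log2 difference 0.66), and with TGF-β 4 rose and 2 fell (median -0.08). Only 25 of the 27 passed the filter without the co-culture libraries; the other 2, Ccl8 and Vsig4, are among the 15. For these lists and those below, the shares over all genes tested are 15.9% higher and 15.0% lower in co-culture and 1.13% higher and 1.39% lower with TGF-β, and no list was tested against them. Clec4n, the dectin-2 receptor gene, rose from 575 ± 127 to 18905 ± 2684 normalized counts in co-culture (5.03 ± 0.18, limma adjusted p = 2.27e-09), and Ltc4s, a leukotriene synthase, rose by 2.69 ± 0.12 (limma adjusted p = 1.01e-09). Cd38, which hydrolyses NAD, rose to 8189 ± 3947 (8.40 ± 0.40, limma adjusted p = 2.28e-08). Igf1, a growth factor, fell by 1.45 ± 0.09 (limma adjusted p = 1.93e-08), and the lectin genes Clec10a and Mgl2, named after their values were seen, fell by 2.91 ± 0.18 and by 3.36 ± 0.36 (limma adjusted p = 2.37e-08 and 6.36e-06). With TGF-β, Hpgd, which breaks down prostaglandins, rose by 2.38 ± 0.22, and Ms4a7 rose from 13286 ± 1247 to 31557 ± 5095 normalized counts.

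Genes of the MHC class II-high interstitial type, the usual counterpart, also moved in both directions in co-culture. In co-culture 6 of the 14 rose and 3 fell (median 0.37), and with TGF-β 4 rose and 0 fell (median 0.52). Cx3cr1, the fractalkine receptor at whose locus the reporter sits, rose by 4.91 ± 0.16 in co-culture and by 3.68 ± 0.16 with TGF-β, and Cxcl16, a scavenger receptor and chemokine, rose by 1.35 ± 0.09 and by 0.88 ± 0.09. The class II genes themselves did not move together. The peptide-loading genes H2-DMa, H2-DMb1 and H2-DMb2 rose by 1.98 ± 0.15, by 0.60 ± 0.13 and by 2.72 ± 0.33 in co-culture, while the invariant chain gene Cd74 fell by 0.54 ± 0.13 and the class II activator Ciita fell by 1.63 ± 0.29. H2-Aa, H2-Ab1 and H2-Eb1, which encode the presenting chains, did not pass in co-culture (0.20 ± 0.36, 0.12 ± 0.31 and -0.54 ± 0.33), and all 3 were lower in co-culture than with TGF-β. H2-Aa rose by 2.03 ± 0.36 with TGF-β. Of these class II genes, those other than H2-DMa were named after their values were seen. The inhibitory receptor gene Cd72 fell by 1.38 ± 0.10.

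Lists of genes from the pathways in which the markers act gave counts in both directions, to be read against 15.9% and 15.0% of all genes in co-culture. Without the co-culture libraries, 17 of the 19 coagulation and transglutaminase genes below passed the filter. So did 13 of the 14 carbonyl reductase genes and 13 of the 14 hemoglobin and iron genes. The rest needed the co-culture libraries to pass, which favours a rise there. Among 19 coagulation and transglutaminase genes, 8 rose and 7 fell in co-culture; the transglutaminase Tgm2 rose from 2861 ± 644 to 45281 ± 7512 (3.99 ± 0.16), while Procr, Anxa2 and S100a10 fell by 1.86 ± 0.17, by 1.54 ± 0.10 and by 1.49 ± 0.10. Among 16 folate genes, 3 rose and 5 fell in co-culture; the methionine synthase gene Mtr rose by 1.03 ± 0.09 and Mthfd2, of mitochondrial folate metabolism, fell by 1.09 ± 0.11, and 3 of 16 is near the share over all genes. Among 14 carbonyl reductase and related genes, 0 rose and 8 fell (median -0.31), with Dhrs9 at -2.43 ± 0.14 and Akr1b8 at -2.29 ± 0.18, the opposite of Cbr2. Of 14 hemoglobin and iron genes tested, 1 rose and 7 fell, and the heme and iron handlers Blvrb, Slc48a1, Slc11a1 and Tfrc fell by 0.96 to 1.06, where Cd163 rose. With TGF-β, 1 of the carbonyl reductase genes fell and 0 of the folate or hemoglobin and iron genes passed the test. Of the coagulation and transglutaminase genes, 1 rose with TGF-β (Tgm2, by 0.94 ± 0.16) and 2 fell, among them F7 by 1.29 ± 0.22.

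**Figure D4:**
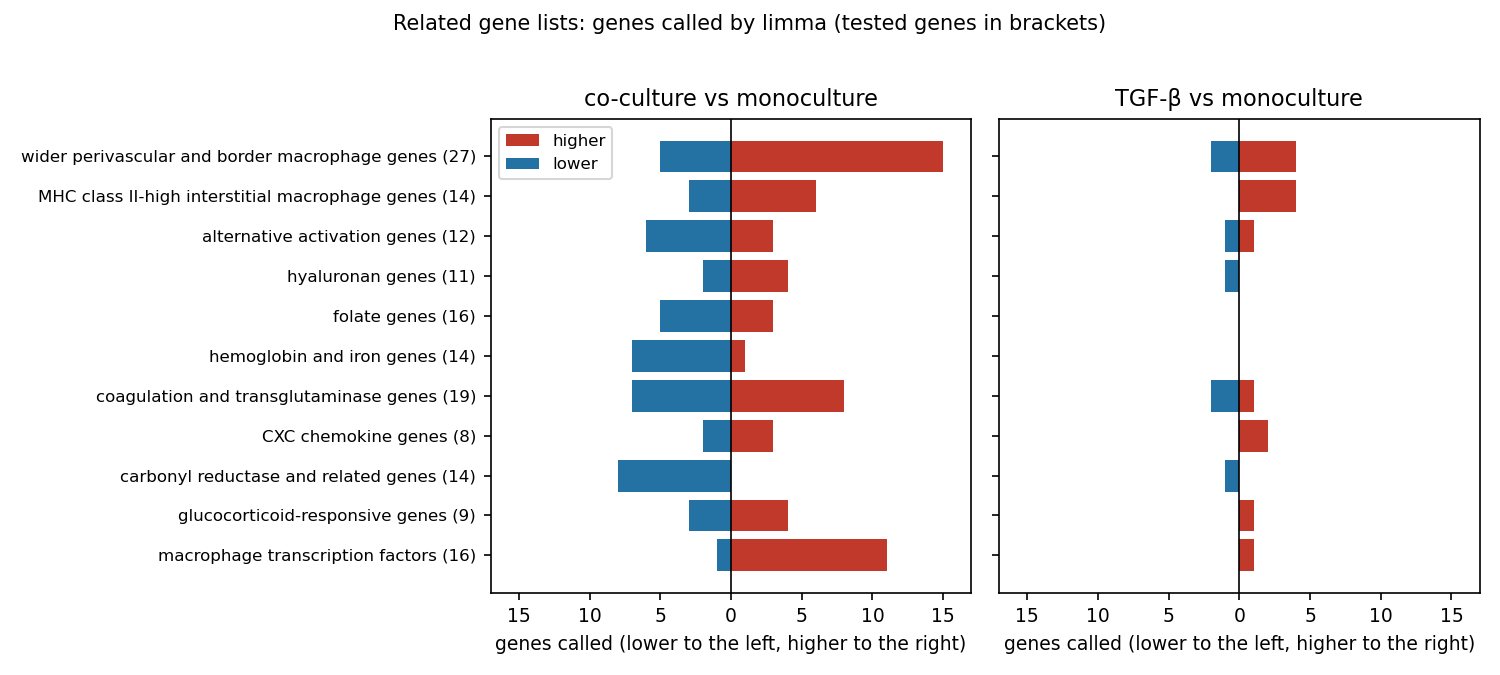
Number of genes in each related list that rose or fell in co-culture and with TGF-β against monoculture, as bars from 0. The perivascular list has 15 rising and 5 falling genes in co-culture, and the carbonyl reductase list has 0 rising and 8 falling.

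Hyaluronan genes, listed because Lyve1 binds hyaluronan, and CXC chemokine genes, the family of Pf4, were mixed. Of 11 hyaluronan genes tested (8 passed without the co-culture libraries), 4 rose and 2 fell in co-culture. The hyaluronan receptor Cd44 fell by 1.02 ± 0.11. Stab2, a clearance receptor of hyaluronan that is also among the endothelial and lymphatic markers above, rose by 1.07 ± 0.27. Of 8 CXC genes tested (7 passed without the co-culture libraries), 3 rose and 2 fell in co-culture. Cxcl14 was higher by 1.65 ± 0.21 and Cxcl2 lower by a log2 difference of -1.91 ± 0.32. Of 16 macrophage transcription factors, 11 rose and 1 fell in co-culture; Runx3 rose from 59.3 ± 15.7 to 7301 ± 1301 and Klf4 fell by 2.07 ± 0.15. Of 12 alternative activation genes, 3 rose and 6 fell; Il4ra rose by 2.78 ± 0.11 and Pparg fell by 2.57 ± 0.13. Of 9 glucocorticoid-responsive genes, 4 rose and 3 fell in co-culture, so the list moved both ways beside Cd163. Sgk1, of smallest p in the list, was higher by 1.47 ± 0.09 and Fkbp5 by 1.18 ± 0.11. Zbtb16 and Klf9 were lower, with log2 differences of -2.62 ± 0.24 and -1.52 ± 0.21. With TGF-β, Sgk1 was higher by 0.45 ± 0.09. The calls in these paragraphs are limma calls at adjusted p under 0.05, on lists chosen with earlier results of these data known.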

How the data were processed

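RNA from 9 sorted mouse macrophage libraries (3 per group) was sequenced. Per the labels' protocols, 10 ng of RNA went into a stranded SMART-Seq kit. Build mm10 is named per the submitters' processing notes, as are DESeq2 1.24.0, R 3.6.1, STAR 2.7.3 and bcl2fastq 2.20, in roles that are not stated; the counting program and its use of strand are not given in the sources used here. The deposited signal values are reads per gene that the authors scaled by a single factor for each library: 100% of the values in each library came out whole (tolerance 0.05). Depth was 46.8 to 308.8 M reads.

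The main test was limma 3.58.1 (R 4.3.3; trend, robust) on log2(value + 10) for the 16328 of 24607 genes with at least 10 normalized counts in at least 3 libraries, in 1 fit of all 9 libraries, with Benjamini-Hochberg adjustment over all of them. Differences are log2 ± SE and levels are mean ± SD; the added 10 understates changes of low genes. Alternatives were edgeR 4.0.16 and DESeq2 1.42.0 on the recovered reads, other pseudocounts, filters, scaling, a replicate block, group subsets and leaving out libraries. The scripts were tested on simulated data. Identifiers of 24335 genes matched GENCODE M21, used for lengths and positions. Named genes were the 8 markers, the 2 most alike genes of each called marker, neighbours, and the called genes of smallest p in each list (4 in co-culture against monoculture, 2 in the others). Not every list gene chosen in this way is named above. Members and lists were chosen with earlier results of these data known. Replicate pairs of 1 group differed beyond counting noise, so none was merged.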

Additional observations from a re-analysis of the deposited data

How the results depend on the processing

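In co-culture against monoculture, Mrc1, F13a1, Cbr2 and Folr2 kept their calls in 18 of 18 alternative settings, with log2 differences of 1.05 to 1.21, 3.74 to 4.97, 2.02 to 2.32 and -2.30 to -2.04. With TGF-β the counts of called markers were small and moved. The number higher, 1 as reported, became 0 with a pseudocount of 50, with no filter, with only the 2 groups in the fit, with neither trend nor robust estimation, without the male libraries, and without monoculture 1 and TGF-β 2; it was 2 with DESeq2. The number lower, 1 as reported, became 0 with no filter, with neither trend nor robust estimation, without the male libraries, and without monoculture 1 and TGF-β 2, and 2 with DESeq2. Leaving out 1 library at a time gave 0 to 1 higher and 0 to 2 lower. In co-culture against TGF-β, 3 were higher as reported, 3 to 6 with 1 library left out, and 6 without monoculture 1 and TGF-β 2, which added Lyve1, Cd163 and Cd209f. With 1 library left out, the Pf4 difference in co-culture ran from -0.12 to 0.27 and the Cd209f difference with TGF-β from -0.11 to 0.93. Without monoculture 1 and TGF-β 2, the differences with TGF-β were -0.13 for Cd163 and -0.31 for Cd209f. The cause was not tested. The settings without male libraries and without monoculture 1 and TGF-β 2 were chosen after seeing the data. Whether replicate numbers pair the samples is not stated, although replicate 1 is male in every group. Deviations of same-numbered libraries correlated at -0.15 to 0.37 over 9 pairs, and 3 pairs were over 0.1. For differently numbered libraries of different groups they correlated at -0.35 to 0.25 over 18 pairs, and 2 were over 0.1. The data do not establish a pairing. With the replicate block, 0 markers were called higher with TGF-β (F13a1 adjusted p = 0.0509), and 5 were in co-culture against monoculture, since Cd209f passed (adjusted p = 0.0126); it changed no other call of a marker. Depth limits Lyve1 and Cd209f, which rest on 0 to 160 reads per library.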
